A study of Homo sapiens with 4 samples.

Results

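The genes described here encode the nuclear-encoded subunits of the mitochondrial respiratory chain and of ATP synthase. They were taken by symbol from the count tables of RPE-1 cells, as the protein-coding genes whose names begin with the subunit prefixes of complex I (NDUFA, NDUFB, NDUFC, NDUFS, NDUFV), complex II (SDHA to SDHD), complex III (UQCR and CYC1), complex IV (COX4 to COX8) and complex V (ATP5). The rule found 89 of the 23459 listed genes, and 81 of the 89 had a CPM (the count scaled to the depth of its library) above 1 in at least 2 libraries and entered the test. It used no measured value. hTERT RPE-1 is a non-cancerous human cell line of retinal pigment epithelium origin, immortalized with telomerase, and it is labelled wild type. All 4 libraries came from cells kept for 48 h in medium with 0.1% serum and then exposed to 200 µM merbarone, a catalytic inhibitor of type II DNA topoisomerases. Exposure lasted 4 h in 2 libraries and 8 h in the other 2, which the study describes as biological replicates. Untreated cells were not analysed here, so time of exposure and time in low serum cannot be told apart, and no value is relative to untreated cells.

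The respiratory chain sits in the inner mitochondrial membrane. Complex I takes electrons from NADH and complex II takes them from succinate, complex III passes them from ubiquinol to cytochrome c, and complex IV passes them to oxygen. Complexes I, III and IV pump protons as they do so, and complex V, the ATP synthase, makes ATP from the returning protons. Most subunits are encoded in the nucleus and imported, while a few membrane subunits of complexes I, III, IV and V are encoded by mitochondrial DNA, and complex II is wholly nuclear. The mitochondrial DNA-encoded subunits were not analysed here.

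Depth ranged from 8064450 to 10324697 counts per library, and the variation between replicates estimated across genes was 6.52%. Replicates differed by more than read sampling, with a chi-square per degree of freedom of 2.667 at 4 h and 3.841 at 8 h. Of 12 markers of retinal pigment epithelium, 5 passed the CPM filter (RDH5, PMEL, MITF, OTX2 and SERPINF1), and RGR and TYR had no count in any library. Their summed level was between 103.1 and 109.6 TMM-normalised CPM at 4 h and between 115.9 and 124.4 at 8 h. KRT8 and KRT18 were the only ones of 5 simple epithelial markers past the filter, with the list summing to between 686.6 and 741.4 at 4 h and between 592.1 and 643.4 at 8 h. All 4 mesenchymal markers passed and summed to between 22060 and 22380 at 4 h and between 27700 and 29040 at 8 h. None of 4 blood, 3 endothelial or 4 muscle markers passed the filter. The part of these differences in the results below was not tested.

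Most subunit genes were not called between 4 h and 8 h, and those that were called were more often higher than lower. At an adjusted p below 0.05 in edgeR's quasi-likelihood test, 18 of the 81 tested members were higher at 8 h (22.2%, against 19.9% of all 12559 tested genes) and 6 were lower (7.41%, against 18.9% of all tested genes). The other 57 members were not called, and over both directions 38.8% of all tested genes were called. No member passed the stricter rule of the study, which adds an absolute log2 fold change above 1 and was met by 5.33% of all tested genes. The median log2 fold change of the tested members was 0.08, with values from -0.59 to 0.80, and 57 of the 81 lay above 0. The median of all tested genes was -0.002. In bulk RNA, fewer cells and less RNA per cell cannot be told apart, and every level is relative to the other RNA of its library.

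The separation of the libraries gave a similar picture. In 32 members both 8 h libraries lay above both 4 h libraries (39.5%, against 34.8% of all tested genes), in 10 members they lay below (12.3%, against 34.9%), and in 39 they overlapped. The median absolute log2 difference between replicates of the same time was 0.137 at 4 h and 0.1499 at 8 h over the members, a spread of single genes. The pooled SD of the members' median between replicates was 0.0349, against their median log2 fold change of 0.08. The counts of called members depended on single libraries, as did those of all tested genes. The members' median was 0.11 without replicate 2 of 4 h and 0.07 without replicate 1 of 4 h. It was 0.05 without replicate 1 of 8 h and 0.15 without replicate 2 of 8 h. In these fits the median of all tested genes lay between -0.0077 and -0.0003. The genes that kept their call in all 11 other analyses and in all 4 fits that left out a library were NDUFA7, NDUFB7, UQCRC1, COX4I1, COX5B, COX6B1 and ATP5PO.

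**Figure D1:**
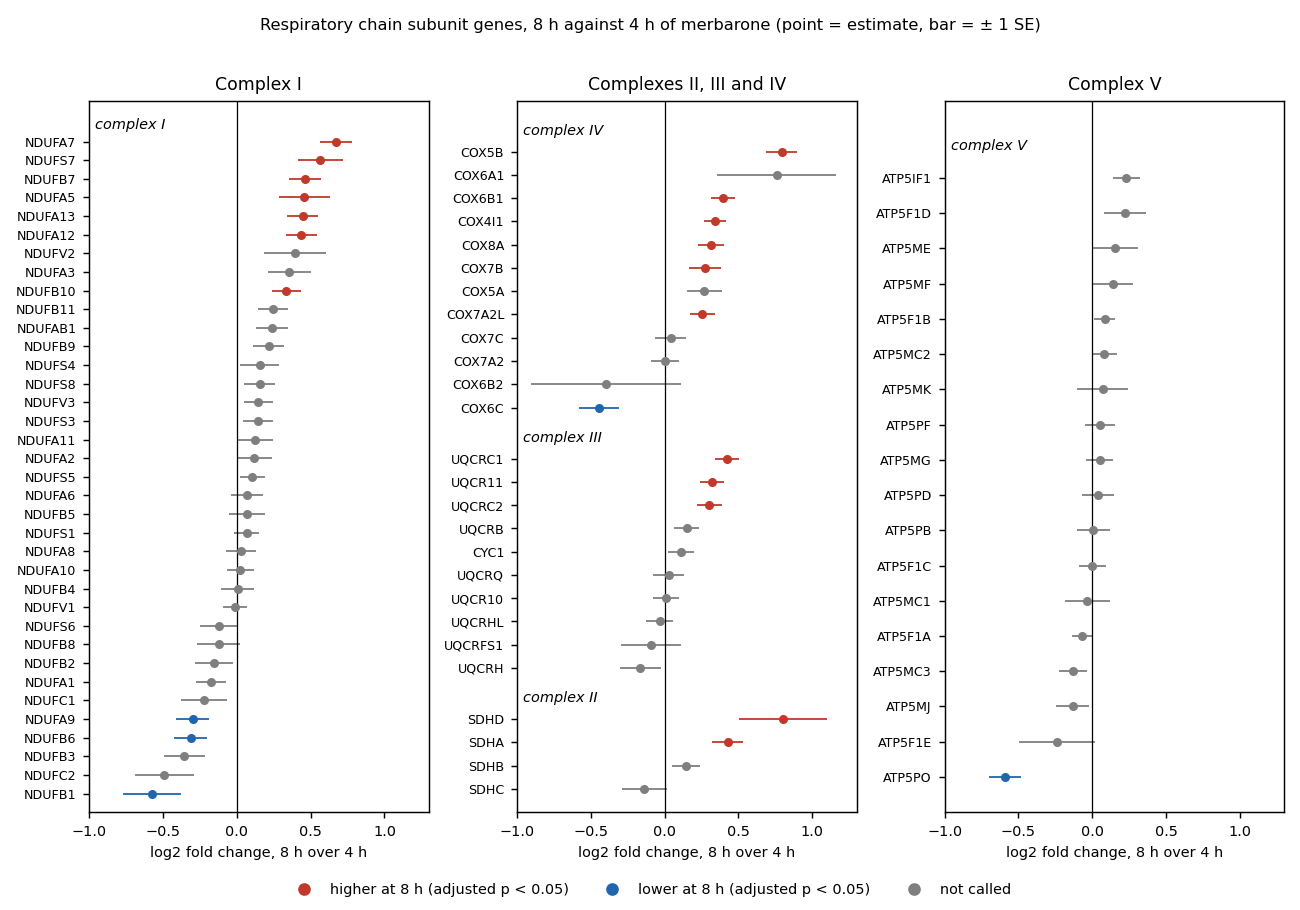
Log2 fold change of 80 of the 81 tested members, 8 h over 4 h, with 1 standard error to each side, grouped by complex. Points right of 0 were higher at 8 h, colour marks the members called at an adjusted p below 0.05, and complex V shows 1 call among 18 genes, that of ATP5PO.

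Complex I is the largest, with 38 members of which 37 were tested. At 8 h 7 were higher (18.9%, close to the 19.9% of all tested genes) and 4 lower (10.8%, against 18.9%), the median log2 fold change was 0.11, and 26 were not called. NDUFA7, an accessory subunit gene at 19:8373652-8386259 (GRCh37, minus strand), had the largest rise of the complex. The TMM-normalised CPM of its 4 h libraries was 31.5 and 34.0, and that of its 8 h libraries 50.3 and 54.3. The times did not overlap, and its log2 fold change was 0.67 ± 0.11 (SE, edgeR adjusted p = 8.1e-05). NDUFS7, a core subunit that carries the last iron-sulphur cluster before ubiquinone, had 25.0 and 22.8 CPM at 4 h and 28.8 and 42.5 at 8 h. Its log2 fold change of 0.57 ± 0.15 (edgeR adjusted p = 0.0064) rested much on replicate 2 of 8 h, without which it was 0.27 and not called, and it was not called without replicate 2 of 4 h either (0.50). NDUFB7, an accessory subunit of the intermembrane space side encoded at 19:14676890-14682878 (GRCh37, minus strand), had 46.6 and 43.4 CPM at 4 h and 56.7 and 67.7 at 8 h, a log2 fold change of 0.46 ± 0.11 (edgeR adjusted p = 0.0021).

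The remaining rises in complex I were those of accessory subunits. NDUFA13, which is also known as GRIM-19, was at 44.1 and 39.0 CPM at 4 h and at 57.8 and 55.6 at 8 h. NDUFA12 was at 51.1 and 43.7 CPM at 4 h and at 63.7 and 64.6 at 8 h. Both had narrow ranges at 8 h, with log2 fold changes of 0.45 and 0.44, and both calls were lost without replicate 2 of 4 h. NDUFB10 and NDUFA5 were the other accessory subunits called higher, with log2 fold changes of 0.33 and 0.46, and each call was lost in 2 of the 4 fits that left out a library.

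The lower genes of complex I were 4. NDUFB1, a small membrane-arm subunit at low level, had 14.9 and 11.8 CPM at 4 h and 9.91 and 7.90 at 8 h, a log2 fold change of -0.57 ± 0.20 (edgeR adjusted p = 0.027). NDUFB6 and NDUFA9, accessory subunits of the membrane arm and of the junction between the arms, had log2 fold changes of -0.31 and -0.30. None of the lower calls of complex I held in DESeq2, and that of NDUFB6 was lost in all 4 fits that left out a library. The lower calls of complex I numbered 1 to 6 over those fits and the higher ones 2 to 8. With replicate 2 of 4 h left out, 2 were higher and 2 lower, and without replicate 1 of 4 h or replicate 2 of 8 h, 1 was lower.

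The core subunits, to which NDUFS7 belongs, hold the flavin and the iron-sulphur clusters of complex I. The core subunit genes NDUFV1, NDUFV2, NDUFS1, NDUFS3 and NDUFS8 were not called. NDUFV1, the NADH-binding subunit, was at 123.4 and 120.3 CPM at 4 h and at 121.7 and 120.2 at 8 h. NDUFS1, the largest core subunit, was at 91.4 and 86.5 at 4 h and at 90.4 and 96.1 at 8 h. Both genes overlapped between times, and the log2 fold changes were -0.01 ± 0.08 for NDUFV1 and 0.07 ± 0.09 for NDUFS1. NDUFS3 and NDUFS8, core subunits of the arm that reaches into the matrix, also overlapped, with log2 fold changes of 0.14 and 0.15. NDUFV2 was at 6.17 and 6.90 CPM at 4 h and at 8.74 and 8.42 at 8 h, above at the later time in both libraries but not called (log2 fold change 0.39, edgeR adjusted p = 0.15). It was called with the abundance trend corrected.

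**Figure D2:**
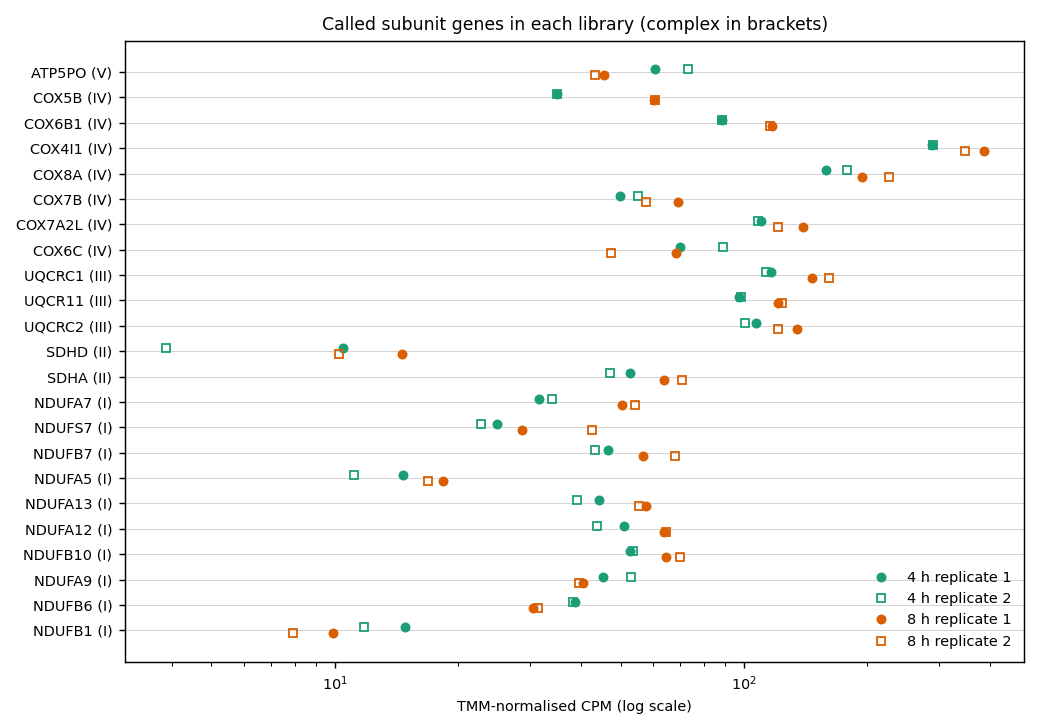
TMM-normalised CPM on a log axis of 23 of the 24 called members in each of the 4 libraries, with 4 h in green and 8 h in orange. The times are separate in all of those shown except SDHD, whose replicate 1 of 4 h (10.47) lies above replicate 2 of 8 h (10.23).

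Complex II, succinate dehydrogenase, also works in the citric acid cycle. Of its 4 genes, 2 were higher (against 19.9% of all tested genes) and none lower (against 18.9%). All tested genes were also split into 5 equal groups by level. The complex II median of 38.87 CPM lay between those of the middle group (30.34) and the group above it (59.67). Of the genes in these groups, 17.4% and 27.4% were higher. Its catalytic flavoprotein gene SDHA was at 52.7 and 47.1 CPM at 4 h and at 63.6 and 70.7 at 8 h, a log2 fold change of 0.43 ± 0.10 (edgeR adjusted p = 0.0027). SDHD, a membrane anchor gene, was at 10.47 and 3.87 at 4 h and at 14.6 and 10.23 at 8 h, from 112, 41, 137 and 79 counts. It was called higher with the largest log2 fold change of all members (0.80 ± 0.30, edgeR adjusted p = 0.038) although its libraries overlapped. Without replicate 2 of 4 h, the value was 0.26 and neither SDHA nor SDHD was called. Without replicate 1 of 8 h, SDHD was not called (0.51), while without replicate 1 of 4 h its value was 1.68 and without replicate 2 of 8 h 1.02. The SDHD call was also lost with library size alone (0.70) and in DESeq2 (0.80). The iron-sulphur subunit SDHB was at 59.0 and 59.7 CPM at 4 h and at 66.7 and 64.5 at 8 h (log2 fold change 0.15 ± 0.09), and the other anchor, SDHC, at 21.9 and 18.4 and at 19.8 and 16.7 (-0.14 ± 0.16). Neither was called.

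In complex III, 3 of 10 members were higher (against 19.9% of all tested genes) and none lower (against 18.9%). The median log2 fold change was 0.07. The complex III median of 103.8 CPM lay between those of the 2 highest of the 5 groups by level (59.67 and 154.6). Of the genes in these groups, 27.4% and 39.1% were higher, so 3 of 10 was no excess over genes at like levels. UQCRC1, a core protein on the matrix side (3:48636435-48648409, GRCh37, minus strand), was at 116.3 and 113.5 CPM at 4 h and at 146.5 and 161.6 at 8 h. Its log2 fold change was 0.42 ± 0.08 (edgeR adjusted p = 0.00053). UQCRC2, the partner core protein, was at 107.2 and 100.9 at 4 h and at 135.2 and 121.5 at 8 h, a log2 fold change of 0.30 ± 0.09 (edgeR adjusted p = 0.0087). The UQCRC2 call was lost with library size alone and with the abundance trend corrected (both 0.20), and without replicate 2 of 4 h or replicate 1 of 8 h. The small subunit gene UQCR11 was at 97.1 and 98.4 at 4 h and at 120.9 and 123.8 at 8 h, with a log2 fold change of 0.32 ± 0.08 (edgeR adjusted p = 0.0041). Of the subunits that carry electrons, neither was called. CYC1, cytochrome c1, was at 78.9 and 85.1 at 4 h and at 90.6 and 86.8 at 8 h, and UQCRFS1, the Rieske iron-sulphur protein, was at 15.5 and 15.02 at 4 h and at 17.9 and 10.4 at 8 h. Without replicate 1 of 8 h, UQCRFS1 and the hinge protein gene UQCRH were called lower, with log2 fold changes of -0.56 and -0.42.

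UQCRH and UQCRHL need to be read together, because the reads of 1 can be counted on the other. UQCRH (1:46769370-46782448, GRCh37, plus strand) has 4 exons, and UQCRHL (1:16133664-16135843, minus strand) is its copy without introns, whose 276 transcript bases match UQCRH at 272 (98.6%). The authors aligned reads without gaps and kept those with a single place in the genome. Of the 463 windows of 75 bases in the spliced UQCRH transcript, 287 matched the genome exactly at UQCRH alone, while 99 that cross a junction matched exactly only at UQCRHL. Shown here are 40 transcript bases around the junctions from which these windows come, at 1:16134071-16134110 and 1:16134044-16134083 of GRCh37 on the minus strand, with the last base before and the next base after the junction in capitals.
UQCRH junction after transcript base 123: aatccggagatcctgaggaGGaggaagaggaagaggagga
UQCRH junction after transcript base 150: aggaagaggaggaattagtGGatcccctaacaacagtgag
UQCRHL had 123.6 and 137.7 CPM at 4 h and 135.5 and 119.4 at 8 h, and UQCRH had 35.4 and 33.8 at 4 h and 35.6 and 25.8 at 8 h. More reads were counted on the copy than on the spliced gene in every library, while more of the UQCRH windows matched UQCRH (287) than UQCRHL (99). The source of the reads counted on UQCRHL was not tested. Neither was called, with log2 fold changes of -0.03 ± 0.09 for UQCRHL and -0.16 ± 0.14 for UQCRH.

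Complex IV, cytochrome c oxidase, had 17 members, of which 12 were tested, 6 higher (against 19.9% of all tested genes), 1 lower, and a median log2 fold change of 0.27. Its median of 73.03 CPM also lay between those of the 2 highest of the 5 groups by level, of which 27.4% and 39.1% were higher. COX5B, a subunit on the matrix side at 2:98262525-98264846 (GRCh37, plus strand), was at 34.98 and 34.96 CPM at 4 h and at 60.4 and 60.7 at 8 h. These replicates differed by less than 1 CPM at each time, and the log2 fold change of 0.79 ± 0.10 (edgeR adjusted p = 6.9e-06) had the smallest p of any member. COX6B1, an intermembrane space subunit, was at 88.7 and 88.5 at 4 h and at 117.2 and 116.0 at 8 h, a log2 fold change of 0.40 ± 0.08 (edgeR adjusted p = 0.00088). COX4I1, the common form of a regulatory subunit that binds ATP, was at 287.9 and 289.7 at 4 h and at 385.0 and 346.4 at 8 h, a log2 fold change of 0.34 ± 0.08 (edgeR adjusted p = 0.0015). COX8A was at 158.4 and 178.9 at 4 h and at 194.3 and 225.8 at 8 h, a log2 fold change of 0.32 ± 0.09 (edgeR adjusted p = 0.0083). The COX8A call was lost with library size alone, the abundance trend correction (0.20) and the length correction (0.18), and without replicate 1 of 4 h or replicate 2 of 8 h.

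The remaining calls of complex IV were those of COX7B, COX7A2L and COX6C. COX7B was at 49.8 and 55.3 CPM at 4 h and at 69.2 and 57.6 at 8 h, a log2 fold change of 0.27 with an edgeR adjusted p of 0.0496. COX7A2L, a factor that joins complexes III and IV into supercomplexes rather than a fixed subunit, was at 109.9 and 108.4 at 4 h and at 139.1 and 121.3 at 8 h, with a log2 fold change of 0.26. The calls of COX7B and COX7A2L were both lost with library size alone, in DESeq2 and with the abundance trend corrected. Over the alternative fits, the log2 fold change ran from 0.13 to 0.40 for COX7B and from 0.15 to 0.35 for COX7A2L. COX6C, the only member of complex IV that was lower, was at 69.7 and 88.8 at 4 h and at 68.4 and 47.4 at 8 h. The gap between its nearest libraries was small, and the log2 fold change of -0.44 ± 0.14 (edgeR adjusted p = 0.014) was no longer called without replicate 2 of either time or in DESeq2. The higher calls of complex IV fell to 3 without replicate 1 of 4 h, with scaling by library size alone, and with the abundance trend corrected. COX5A, which neighbours COX4I1 in the complex, was at 29.3 and 32.2 at 4 h and at 37.9 and 36.1 at 8 h and was not called (log2 fold change 0.27, edgeR adjusted p = 0.075). It was called higher with the GC correction (0.32) and with the replicate block and abundance trend together (0.29). COX7C and COX7A2 were near 0, at 0.04 and 0.003.

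Several complex IV subunits exist in alternative forms that differ between tissues. Of the forms known for heart and skeletal muscle, COX6A2 and COX7A1 had no count in any library, nor had COX4I2, a form known from lung and low oxygen, or COX7B2. COX8C had 2 counts in a single library. COX6B2, known for testis, just passed the filter, with 19 and 9 counts at 4 h and 8 and 9 at 8 h. COX6A1, the general form, also lay just inside it, with 14, 18, 31 and 13 counts. Of its 463 windows of 75 bases, 148 within exons recurred elsewhere in the genome and 72 across junctions matched only the pseudogene COX6A1P2, and the part of this in its low count was not tested. Neither COX6B2 nor COX6A1 was called (log2 fold change -0.40 ± 0.51 and 0.76 ± 0.41). COX6A1 was called higher without replicate 2 of 8 h (1.13) and with the replicate block and abundance trend together (0.95). The gene once named NDUFA4, a complex IV subunit now called COXFA4, falls outside the symbol rule. It was at 90.2 and 86.6 CPM at 4 h and at 116.7 and 89.5 at 8 h and was not called (edgeR adjusted p = 0.094). Its paralog COXFA4L2, known to rise in low oxygen, had 5 and 7 counts at 4 h and 18 and 9 at 8 h. It passed the CPM filter only through the 8 h libraries, so its log2 fold change of 1.46 (edgeR adjusted p = 0.035) is given as a description.

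In complex V, almost nothing was called. Of 18 tested members none was higher (against 19.9% of all tested genes) and 1 was lower (5.56%, against 18.9%), with a median log2 fold change of 0.04. In 14 of the 18 the times overlapped, against 3803 of all 12559 tested genes. ATP5PO, the oligomycin sensitivity-conferring protein that joins the stalk to the catalytic head (21:35275757-35288118, GRCh37, minus strand), was at 60.8 and 72.8 CPM at 4 h and at 45.4 and 43.2 at 8 h. The times were well separated, and its log2 fold change was -0.59 ± 0.11 (edgeR adjusted p = 0.00026), the lowest of all members. The difference between complex V and the other complexes was not tested. Without replicate 1 of 8 h, 1 member of complex V was higher and 3 were lower, and without replicate 2 of 8 h 1 was higher.

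The 5 genes of the catalytic F1 head were not called. ATP5F1B, the catalytic beta subunit and the member with the highest CPM, was at 611.4 and 642.4 CPM at 4 h and at 659.4 and 669.2 at 8 h. ATP5F1A, the alpha subunit, was at 347.1 and 359.7 at 4 h and at 337.7 and 336.7 at 8 h. Beta lay above and alpha below its 4 h values in both 8 h libraries, by log2 fold changes of 0.08 ± 0.07 and -0.07 ± 0.07. With the abundance trend corrected, ATP5F1A was called lower (log2 fold change -0.21, edgeR adjusted p = 0.027). The central stalk genes overlapped between times. ATP5F1C, the gamma subunit, was at 90.3 and 83.2 at 4 h and at 92.1 and 81.3 at 8 h, ATP5F1D, the delta subunit, at 32.4 and 39.0 and at 34.6 and 49.1, and ATP5F1E, the epsilon subunit, at 4.77 and 7.28 and at 4.80 and 5.44. ATP5F1D had a log2 fold change of 0.22, and without replicate 1 of 8 h it was called higher at 0.46.

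The membrane ring of complex V is built from identical c subunits that 3 genes encode, and their mature proteins do not differ. ATP5MC2 was at 199.2 and 216.4 CPM at 4 h and at 234.5 and 204.6 at 8 h, ATP5MC3 at 101.9 and 103.4 and at 103.5 and 83.5, and ATP5MC1 at 17.6 and 20.8 and at 19.6 and 17.7. None was called, and in all 3 the times overlapped. Without replicate 1 of 8 h, ATP5MC3 was called lower (log2 fold change -0.30), as it was with the replicate block and abundance trend together (-0.23). Per kilobase of merged exons, the mean over the 4 libraries was 99.1 CPM for ATP5MC2, 35.3 for ATP5MC3 and 27.7 for ATP5MC1. Per kilobase of countable windows, it was 672 for ATP5MC2, 61.1 for ATP5MC1 and 43.7 for ATP5MC3, so ATP5MC2 led on both scales and the order of the others turned. ATP5IF1, which inhibits the enzyme when it runs in reverse, was at 77.3 and 85.4 CPM at 4 h and at 99.1 and 91.3 at 8 h. It missed the threshold (log2 fold change 0.23, edgeR adjusted p = 0.053) and was called with the replicate block, the GC correction and the length correction, and without replicate 2 of 8 h.

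Of the 89 members, 8 were not tested. Besides COX4I2, COX6A2, COX7A1, COX7B2 and COX8C, these were ATP5MGL with 1 count in each library, and the read-through genes NDUFC2-KCTD14 with 1 count in all and ATP5MF-PTCD1 with none. Exons of 12 members overlap another listed gene. Among the called members these were NDUFB6, by 9 bases with SMIM27, and ATP5PO, by 52 bases with LINC00649, which had a mean of 0.5 counts. Whether the counting used strand is not given in the sources used here.

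The share of each transcript that could give a countable read varied widely. For ungapped reads of 75 bases with 1 exact place in the genome, a median of 62.6% of the windows of a member could be counted, from 16.6% in ATP5ME to 98.5% in UQCRHL, against a median of 80.3% over all tested genes. Windows across a junction with no place in the genome took a median of 31.9% of a member and 18.4% of all genes. The members' transcripts were shorter, with a median of 758 bases and 4 exons, against 3348 bases and 9 exons over all tested genes. In 27 tested members, windows within exons recurred elsewhere, most in SDHC (42.3%), COX6A1 (32.0%) and SDHD (25.5%). In NDUFV2, 122 of all 783 windows crossed a junction and matched only NDUFV2P1. Copies that differ in a few bases were not searched, and the mismatches allowed in the authors' mapping are not given in the sources used here. The shares, and the levels per countable window below, thus hold for exact matches only. The same mapping was used for both times.

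**Figure D3:**
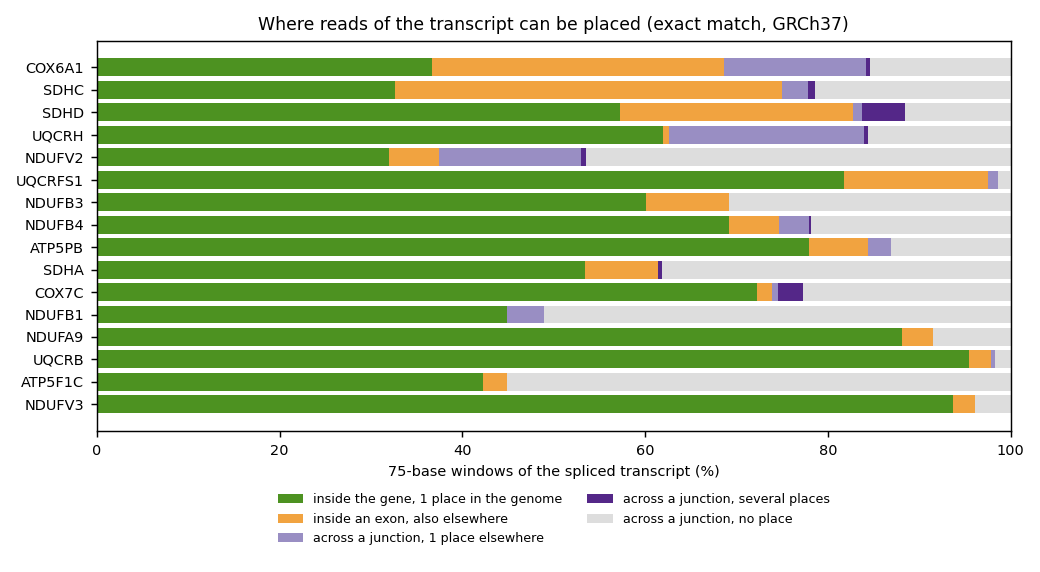
Share of the 75-base windows of the spliced transcript, in percent, by where they match GRCh37, for the 16 tested members with most windows that also fit elsewhere. Green windows can be counted on the gene, and UQCRH has 21.4% of its windows on its copy UQCRHL.

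COX8A, ATP5F1B and COX4I1 were among the 6 highest members per length on either scale. Per kilobase of merged exons, COX8A had a mean of 341 ± 29.4 CPM at 4 h (SD, n = 2) and 425 ± 45.1 at 8 h, and ATP5F1B 356 ± 12.5 at 4 h and 378 ± 3.96 at 8 h. These ranges overlap at both times, but at 8 h both libraries of COX8A (393 and 457) lay above both of ATP5F1B (375 and 380). COX4I1 followed further down, at 160 ± 0.709 and 203 ± 15.2, but was highest per kilobase of countable windows, with a mean of 790 over the 4 libraries against 617 for ATP5F1B and 544 for COX8A. UQCRHL had rank 3 on that scale with 648, which includes reads that come from UQCRH junctions if these were sequenced. That scale uses the windows of 1 transcript per gene, 199 in UQCRHL, whose merged exons span 2180 bases. Per kilobase of merged exons, UQCRHL had rank 26. The members together took 0.574% and 0.599% of the counts at 4 h and 0.607% and 0.573% at 8 h, ranges that overlap. Summed over complex IV, the TMM-normalised 4 h libraries reached 985 and 1036 and the 8 h libraries 1249 and 1155, while complex V summed to 1929 and 2031 at 4 h and to 2054 and 1957 at 8 h. The complex IV sums were thus separate between the times, and those of complex V overlapped.

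The fold changes went with the level of the genes. When all tested genes were split into 5 equal groups by mean log2-CPM, the share called higher rose from 5.61% in the lowest to 39.1% in the highest, and the median log2 fold change from -0.20 to 0.12. Of the members, 3, 11, 18, 30 and 19 fell in the groups from lowest to highest, with 0, 2, 2, 7 and 7 called higher. In the highest group, 7 of 19 members were higher (36.8%) and none was lower, against 14.6% lower among all genes of that group. The median over all members was 0.03 with the abundance trend corrected. With this correction 16 members were higher (19.8%, against 18.1% of all tested genes) and 6 lower (7.41%, against 18.4%). Of the 24 calls, 19 were made in the same direction with the correction. Fold changes also went with GC content, with a Spearman correlation across genes of 0.31 in the members and 0.15 in all tested genes. Genes of the same 4 libraries are not independent, and these correlations are a description.

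**Figure D4:**
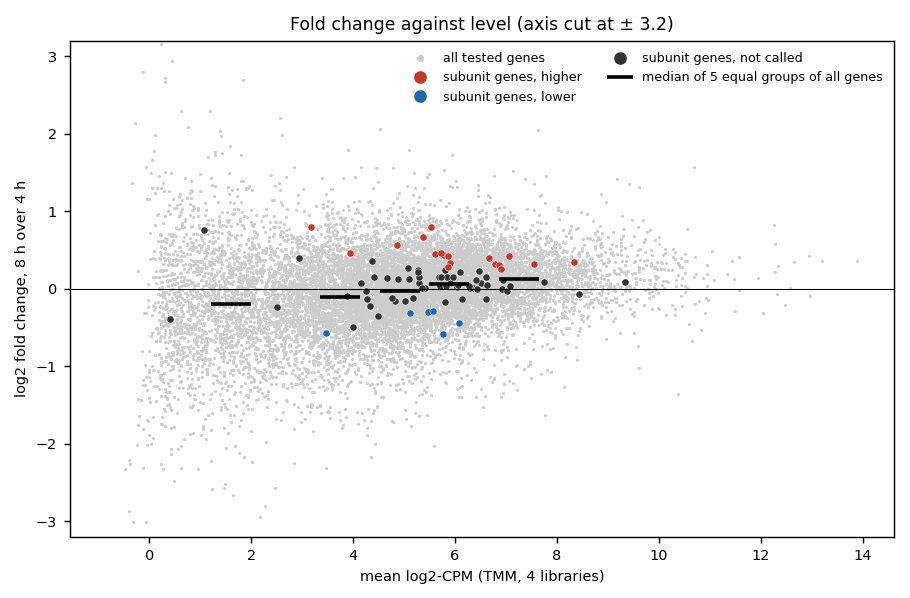
Log2 fold change, 8 h over 4 h, against mean log2-CPM for all tested genes (grey) and the members (red higher, blue lower, dark not called), with the median of 5 equal groups of all genes as a black bar. The bars climb from -0.20 to 0.12, and the called members lie within the cloud of all genes.

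Promoters of respiratory genes are known to carry sites of the factors NRF1, the ETS-family factor GABP, and YY1. RefSeq promoter windows of 300 bases (250 before the start to 50 after, GRCh38.p14) were found for 67 tested members and searched on both strands for the palindrome-like NRF1 motif, whose matches are printed below, for CCGGAAG (the ETS core) and for AANATGGCG (YY1). No motif contains another. The NRF1 letters were in 16 member promoters (23.9%, against 12.3% of the 10183 promoters of tested genes), the ETS letters in 20 (29.9%, against 19.8%) and the YY1 letters in 16 (23.9%, against 7.19%). Of the 18 members called higher, 8 held the ETS letters and 5 the NRF1 letters, while of 4 lower members with a window none held the ETS letters and 2 the NRF1 letters. In complex IV, 5 of 11 windows held the ETS letters and none the NRF1 letters. A match is a description and not a site. Among the 45 members that were not called, 12 held the ETS letters (26.7%) and 9 the NRF1 letters. Of the 6 members called higher in every analysis, 4 held the ETS letters (COX5B, NDUFB7, COX6B1 and COX4I1), UQCRC1 held the NRF1 and YY1 letters and NDUFA7 the YY1 letters alone. This count was made after the values were seen. Stretches before the start with the ETS or NRF1 letters in capitals are shown for 5 of the 7 members with such stable calls. The match in COX4I1 lies after the start and is not printed, and NDUFA7 holds neither motif. They lie at 2:97646005-97646051 (COX5B, plus strand), 19:14572067-14572110 (NDUFB7, minus strand), 19:35648291-35648322 (COX6B1, plus strand), 3:48609664-48609713 (UQCRC1, minus strand) and 21:33915805-33915848 (ATP5PO, minus strand), all in GRCh38.p14.
COX5B, ETS letters: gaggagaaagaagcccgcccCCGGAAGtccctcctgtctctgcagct
NDUFB7, ETS letters: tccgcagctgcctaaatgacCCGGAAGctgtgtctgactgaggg
COX6B1, ETS letters on the other strand: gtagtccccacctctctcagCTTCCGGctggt
UQCRC1, NRF1 letters: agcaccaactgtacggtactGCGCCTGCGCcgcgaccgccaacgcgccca
ATP5PO, NRF1 letters: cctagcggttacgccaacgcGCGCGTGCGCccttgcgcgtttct
The NRF1 letters stand both in UQCRC1, which was higher, and in ATP5PO, which was lower.

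Other genes of the pathway were compared in the same fit. Of 58 tested assembly factors, which build the complexes without being part of them, 5 were higher (8.62%, against 19.9% of all tested genes) and 13 lower (22.4%, against 18.9%), with a median log2 fold change of -0.13. The lower share lay near that of all genes at like levels, of which 23.4% and 21.9% were lower in the 2 groups by level next above the lowest of the 5. In the same 2 groups, 252 of 2512 and 436 of 2511 genes were higher. The higher share of the factors was below both, but closer to them than to the 19.9% of all tested genes. TMEM186, a factor for complex I, was at 16.1 and 13.5 CPM at 4 h and at 8.53 and 8.81 at 8 h (log2 fold change -0.77). NDUFAF1, another factor for complex I, was at 19.2 and 26.2 at 4 h and at 15.3 and 12.8 at 8 h (-0.68). NDUFAF3 went the other way, at 41.7 and 45.3 at 4 h and at 52.0 and 82.0 at 8 h (0.61). In each of these genes both 8 h libraries lay on the same side of the 4 h libraries. The lower assembly factors numbered 5 without replicate 1 of 4 h, 6 without replicate 2 of 4 h, 8 without replicate 2 of 8 h and 5 in DESeq2. The higher ones numbered 2 without either 4 h library or replicate 1 of 8 h. The difference between assembly factors and subunits was not tested, and their levels differ, with a median of 20.8 CPM in the factors and 53.6 in the members.

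Regulators of these genes and of mitochondrial transcription split evenly, with 5 of 20 higher (25.0%, against 19.9% of all tested genes), 5 lower (25.0%, against 18.9%) and a median of 0.02. MTERF2, a factor that binds mitochondrial DNA, had 15.9 and 13.04 CPM at 4 h but 4.05 and 5.05 at 8 h, and was the only gene of these lists past the stricter rule of the study (log2 fold change -1.68 ± 0.22, edgeR adjusted p = 7e-06). TEFM, the mitochondrial transcription elongation factor, was also lower (-0.85), while POLRMT, the mitochondrial RNA polymerase, was higher, at 8.42 and 9.16 at 4 h and at 13.7 and 15.5 at 8 h (0.73). The factors NRF1, SP1 and PPRC1, an NRF1 coactivator, were among the higher ones, with log2 fold changes of 0.50, 0.66 and 0.64. GABPB2, a subunit of the ETS factor GABP, was lower (-0.62, edgeR adjusted p = 0.036), as were TFB1M (-0.59) and MTERF4 (-0.52), while GABPA (-0.27), GABPB1 (0.09) and YY1 (0.10) were not called. These genes were named after their values were seen. The lower regulators numbered 3 without replicate 1 of 4 h, 2 without replicate 2 of 4 h and 2 in DESeq2.

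Of 15 genes for cytochrome c and ubiquinone synthesis, 2 were higher (13.3%, against 19.9% of all tested genes) and 4 lower (26.7%, against 18.9%), with a median of -0.18. COQ8A, an atypical kinase of ubiquinone synthesis, was at 14.6 and 17.6 CPM at 4 h and at 35.3 and 28.1 at 8 h (log2 fold change 0.98 ± 0.15, edgeR adjusted p = 4.3e-05). COQ10B, a ubiquinone-binding protein, was also higher (0.65), and PDSS1, which makes the isoprenoid tail, was lower (-0.86). The lower calls of this list numbered 0 without replicate 1 of 4 h and 1 in DESeq2.

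Of 18 genes of the citric acid cycle and pyruvate dehydrogenase, 2 were higher (11.1%, against 19.9% of all tested genes) and 5 lower (27.8%, against 18.9%), with a median of -0.01. PDHX was higher (0.61), and DLD and PDHA1, which belong to the same pyruvate dehydrogenase complex, were lower (-0.46 and -0.44). The lower calls numbered 1 without replicate 2 of 4 h and 3 without replicate 1 of 8 h, and the higher ones 1 without replicate 2 of 4 h. Of 7 tested carriers and uncoupling proteins, 1 was higher (14.3%, against 19.9% of all tested genes) and 1 lower (14.3%, against 18.9%). UCP2 was the higher one (0.38), and VDAC3, an outer membrane channel kept in that list, the lower one (-0.34). Without replicate 1 of 4 h VDAC3 was not called, without replicate 2 of 4 h UCP2 was not called, and without replicate 1 of 8 h 2 genes were lower.

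**Figure D5:**
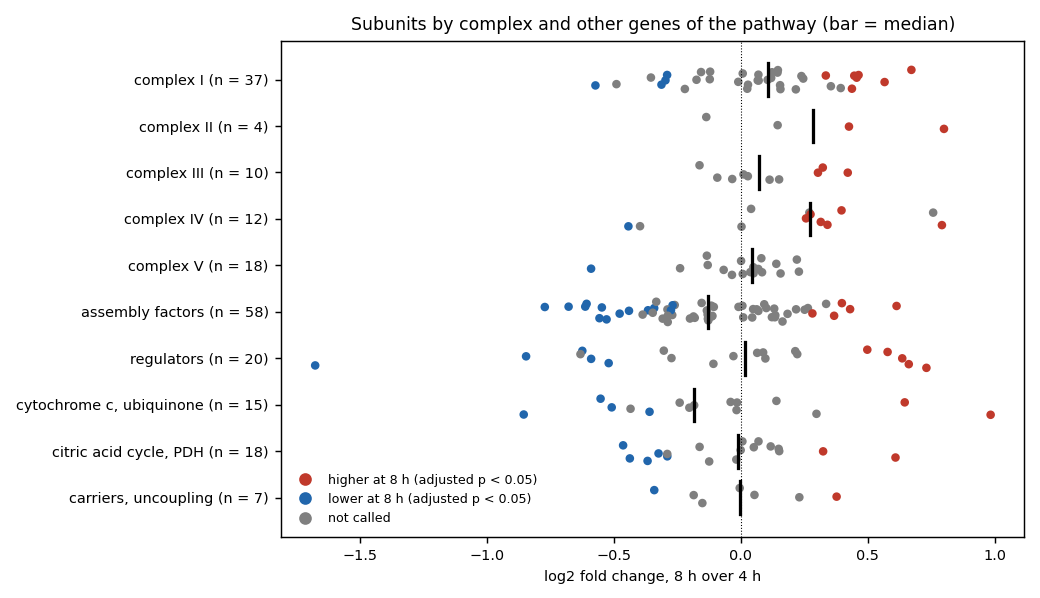
Log2 fold change, 8 h over 4 h, of each tested gene in the 5 complexes and in 5 other lists of the pathway, with the median as a bar and calls in colour. The medians run from 0.29 in complex II to -0.18 in the cytochrome c and ubiquinone genes, and the lowest point is MTERF2.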

How the data were processed

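RNA was measured by RNA-Seq in 4 libraries (TruSeq Stranded mRNA, 150 ng of total RNA, single reads of 75 bases). Per the study's methods, the authors mapped reads to hg19 with Bowtie 1.2.0 and retained those with a single genomic position. The deposited values are raw counts per gene by NCBI Gene identifier, not normalized or filtered. The gene annotation and counting tool are not given in the sources used here.

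Symbols came from RefSeq (GRCh38.p14), for 23308 of 23459 genes, and positions and transcripts from GENCODE on GRCh37 (22390 genes, all 89 members). The filter retained the 12559 genes whose CPM exceeded 1 in 2 or more libraries. TMM factors lay between 0.9576 and 1.0392. The edgeR 4.0.16 quasi-likelihood test in R 4.3.3 used every library and no term but time, and p-values were adjusted by Benjamini-Hochberg over all tested genes. A call is an adjusted p below 0.05, and the study's rule adds an absolute log2 fold change above 1. SE is the log2 fold change divided by the square root of F. Limma-Voom (limma 3.58.1), DESeq2 1.42.0, other scalings, filters, trend corrections, a replicate block and leaving out each library were alternatives.

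Depth was 8064450 to 10324697 counts, and with 2 libraries per time p-values rest on a spread shared across genes and measure only the spread between these samples. The differences between replicates 1 and 2 in log2-CPM at 4 h correlated at 0.048 with those at 8 h over all tested genes. The replicate numbers were therefore not taken as pairs. The members, lists and tests were chosen with earlier results of these data known. Named genes were the 3 largest called changes per complex and per list, the core and alternative subunits, and members at the CPM filter. Other called members were added after their values were seen. Values of 1 member are not reported here, and it is left out of the plots that name genes.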

Additional observations from a re-analysis of the deposited data

How the results depend on the processing

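The direction of the members' median turned with scaling. With library size alone, it was -0.0246, but the median of all genes moved to -0.108. The members' median lay 0.083 above that of all genes with either scaling. With library size alone, 11 members were higher (13.6%, against 13.5% of all tested genes) and 9 lower (11.1%, against 26.2%). The members' median was 0.03 with the abundance trend corrected (0.0277), with the replicate block and abundance trend together (0.0287) and with the length trend corrected (0.0329). The GC correction went the other way, with a median of 0.1116. It gave 24 members higher (29.6%, against 22.6% of all tested genes) and 5 lower (6.17%, against 20.7%). In DESeq2 1 member was lower (1.23%, against 11.9% of all tested genes) and 14 higher (17.3%, against 14.3%). RLE size factors and Limma-Voom gave 18 higher and 6 lower, as in the main analysis. The replicate block gave 22 higher (27.2%, against 22.5% of all tested genes) and 8 lower (9.88%, against 21.2%). Same-numbered libraries share only a number, and their deviations correlated at 0.114 over 9396 genes with a mean count of at least 100.

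By complex, library size alone gave 7 lower in complex I, 1 higher in complex II and 3 higher in complex IV. DESeq2 gave 0 lower in complexes I and IV and 1 higher in complex II. The abundance trend correction gave 3 higher in complex IV and 2 lower in complex V, or 3 lower with the replicate block added. The replicate block, the GC correction and the length correction each gave 1 higher in complex V. Among the other lists, library size alone gave 1 higher assembly factor, 1 higher citric acid cycle gene and 3 lower carriers. DESeq2 gave 0 higher and 5 lower assembly factors, 2 lower regulators and 1 lower cytochrome c or ubiquinone gene. The abundance trend correction gave 1 higher citric acid cycle gene and 2 lower carriers, also 2 with the block, and the length correction 3 higher assembly factors. The cause of these shifts was not tested.

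Leaving out each library in turn gave 8 to 20 members higher, 2 to 12 lower, 0 to 2 past the study's thresholds and a median of 0.0473 to 0.1517. The ranges of higher and of lower calls were 2 to 8 and 1 to 6 in complex I, 0 to 2 and 0 to 0 in complex II, 2 to 3 and 0 to 2 in complex III, 3 to 6 and 0 to 1 in complex IV, and 0 to 1 and 1 to 3 in complex V. They were 2 to 5 and 5 to 10 for assembly factors, 4 to 5 and 2 to 4 for regulators, 2 to 2 and 0 to 4 for cytochrome c and ubiquinone, 1 to 2 and 1 to 6 for the citric acid cycle, and 0 to 1 and 0 to 2 for carriers. The number of calls among all tested genes also changed with the library left out. The lone library was assumed to vary like the other time. For single named genes, 748 values kept their side of the threshold, 58 lost it and 17 gained it, and none turned direction while called. The level per countable window was added after seeing the data.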

Other observations

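The chromosomes of the members were looked at after their values were seen. Of the 11 tested members on chromosome 19, 6 were higher at 8 h (54.5%) and none was lower, with a median log2 fold change of 0.35. These 6 were NDUFA7, NDUFS7, NDUFB7, NDUFA13, UQCR11 and COX6B1. Among the 70 tested members elsewhere, 12 were higher (17.1%) and 6 lower (8.57%), with a median of 0.07. Over all 876 tested genes of chromosome 19, 24.0% were higher and 11.8% lower, with a median of 0.09. No test was run on this grouping.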
